A study of Mus musculus with 4 samples.

Results

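Genes of the lysosome were examined in mouse helper T cells that lacked Bfar and in wild-type cells. The genes comprise the subunits of the vacuolar proton pump, cathepsins, other lysosomal hydrolases and lipid-handling proteins, lysosomal membrane proteins, and the transcription factors Tfeb and Tfe3. They were chosen by symbol, 43 of the 17478 genes listed in at least 1 library. Atp6v0c was summed with its copy Atp6v0c-ps2 and Rnaset2a with Rnaset2b, which left 41 values, all of which passed the filter on low counts.

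The lysosome is the acidic compartment in which cells break down proteins, lipids, glycans and nucleic acids. Its lumen is acidified by the V-ATPase, a rotary pump in which the cytosolic V1 sector hydrolyses ATP and the membrane V0 sector carries the protons. Many lysosomal genes carry the letters CACGTG near their start sites, which TFEB and TFE3 bind when these factors enter the nucleus. In T cells, lysosomes take part in the turnover of receptors, in autophagy and in nutrient sensing by mTORC1.

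RNA was sequenced from 2 wild-type libraries and 2 libraries labelled BFAR-/-, from C57BL/6 mice aged 6 to 8 weeks in which the gene was deleted conditionally in T cells; the driver of the deletion is not given in the sources used here. Both groups were naive CD4+CD44loCD62Lhi cells sorted from spleens and lymph nodes, stimulated with antibodies to CD3 and CD28, and held for 3 days in a Th9 culture, which yields helper cells that secrete interleukin 9. Whether replicates came from separate mice is not stated in the labels, and the p-values reflect the spread among these libraries alone, which could be technical. A permutation of single values could not go below a two-sided p of 0.333 with 2 libraries a group, so the edgeR fit over all genes was used.

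The libraries held 19058009 to 19782923 expected counts. Bfar, which encodes a ubiquitin ligase of the endoplasmic reticulum, was at 36.4 and 32.9 counts scaled by library size (CPM) in wild type and at 8.45 and 7.79 in the knockout, so both knockout libraries matched their label. Of 8 T cell markers 7 were listed, with summed levels of 2118 to 2133 CPM in wild type and 2257 to 2301 in the knockout. Of 12 macrophage and monocyte markers, a cell type rich in cathepsins, 7 were listed. The other 5 (Lyz2, Csf1r, C1qa, C1qb and C1qc) were not listed in any library and were taken as 0. The T cell marker Trac was missing in the same way, so a missing gene cannot be read as a measured 0. The macrophage and monocyte list summed to 5.45 to 6.28 CPM in wild type and 5.91 to 6.32 in the knockout. The 7 dendritic cell markers summed to 4.74 to 5.97 and 5.63 to 5.70 CPM, the 5 B cell markers to 5.30 to 5.31 and 4.42 to 4.77, and the 2 CD8 markers to 10.7 to 11.2 and to at most 11.6. The 4 stromal markers, mostly Pecam1, summed to 18.4 to 18.7 and 26.7 to 26.8, and the neutrophil, mast cell, natural killer and erythroid lists to at most 0.252 CPM. The part of these cells in the results was not tested. In bulk RNA, fewer cells of a type and less RNA per cell cannot be told apart.

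Lysosomal genes moved in both directions. In the knockout 5 of the 41 rose (Npc2, Laptm5, Atp6ap1, Atp6v1a and Npc1) and 7 fell (Gusb, Ctsl, Gaa, Atp6v0e, Ctsc, Tfe3 and Ctsb), by an edgeR adjusted p under 0.05. That is 29.3% of the members, beside 26.8% of all 12675 genes tested, of which 13.6% were higher and 13.2% lower. The share is thus near the background. Leaving out any 1 library, which left 1 in a group, lowered the counts of rises and falls among the members and over all genes tested alike. The largest rise was 26.2% (Npc2) and the largest fall 20.4% (Gusb). On the log2 scale the median change from wild type to knockout was -0.01 over the members and -0.002 over all genes tested. The median absolute log2 change was 0.09 and 0.14. The members are mostly well expressed, while all genes tested include many at low level. Whether level accounts for the smaller median absolute change was not tested. The CPM of the 2 groups did not overlap for 12 members with the knockout above and 11 with the knockout below, beside 31.6% and 31.8% of all tested genes (63.4% in either direction).

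**Figure D1:**
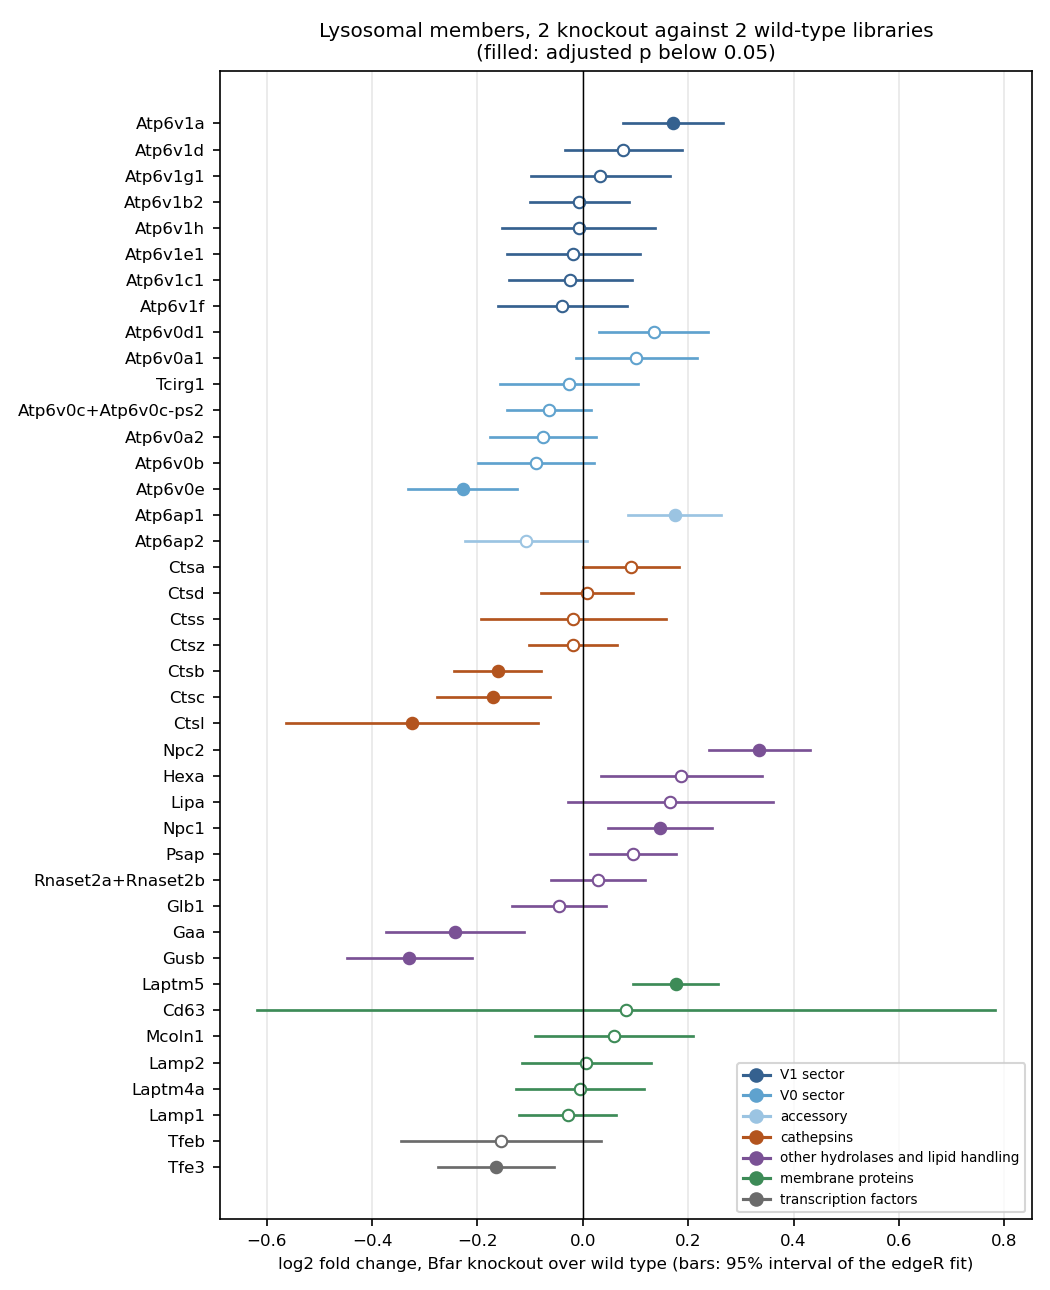
Log2 fold change of each of the 41 members, knockout over wild type, ordered by class, with the 95% interval of the edgeR fit as a bar and filled points for adjusted p under 0.05. Of the 41 points 12 are filled, 5 to the right of 0 and 7 to the left, and no point lies beyond 0.34 in either direction.

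By level, 38 of the 41 members lay above the median tested gene (9.97 FPKM, counts scaled to transcript length and depth). Laptm5, a lysosomal membrane protein of blood cells that controls the turnover of the T cell receptor, stood highest with 470 ± 9.09 FPKM in wild type and 529 ± 26.1 in the knockout (SD, n = 2). The summed Atp6v0c pair (189 and 182 FPKM), the summed Rnaset2 pair (170.1 and 175 FPKM) and Ctsz (142 and 139 FPKM) followed. Ctsl and Cd63 were lowest, with 2.28 to 2.92 and 1.04 to 1.46 FPKM over the libraries. Cd63, a tetraspanin of late endosomes, rested on 18 to 25 counts a library. Its interval of the log2 fold change ran from -0.62 to 0.78, so that only a larger difference would have been detectable at this depth.

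**Figure D2:**
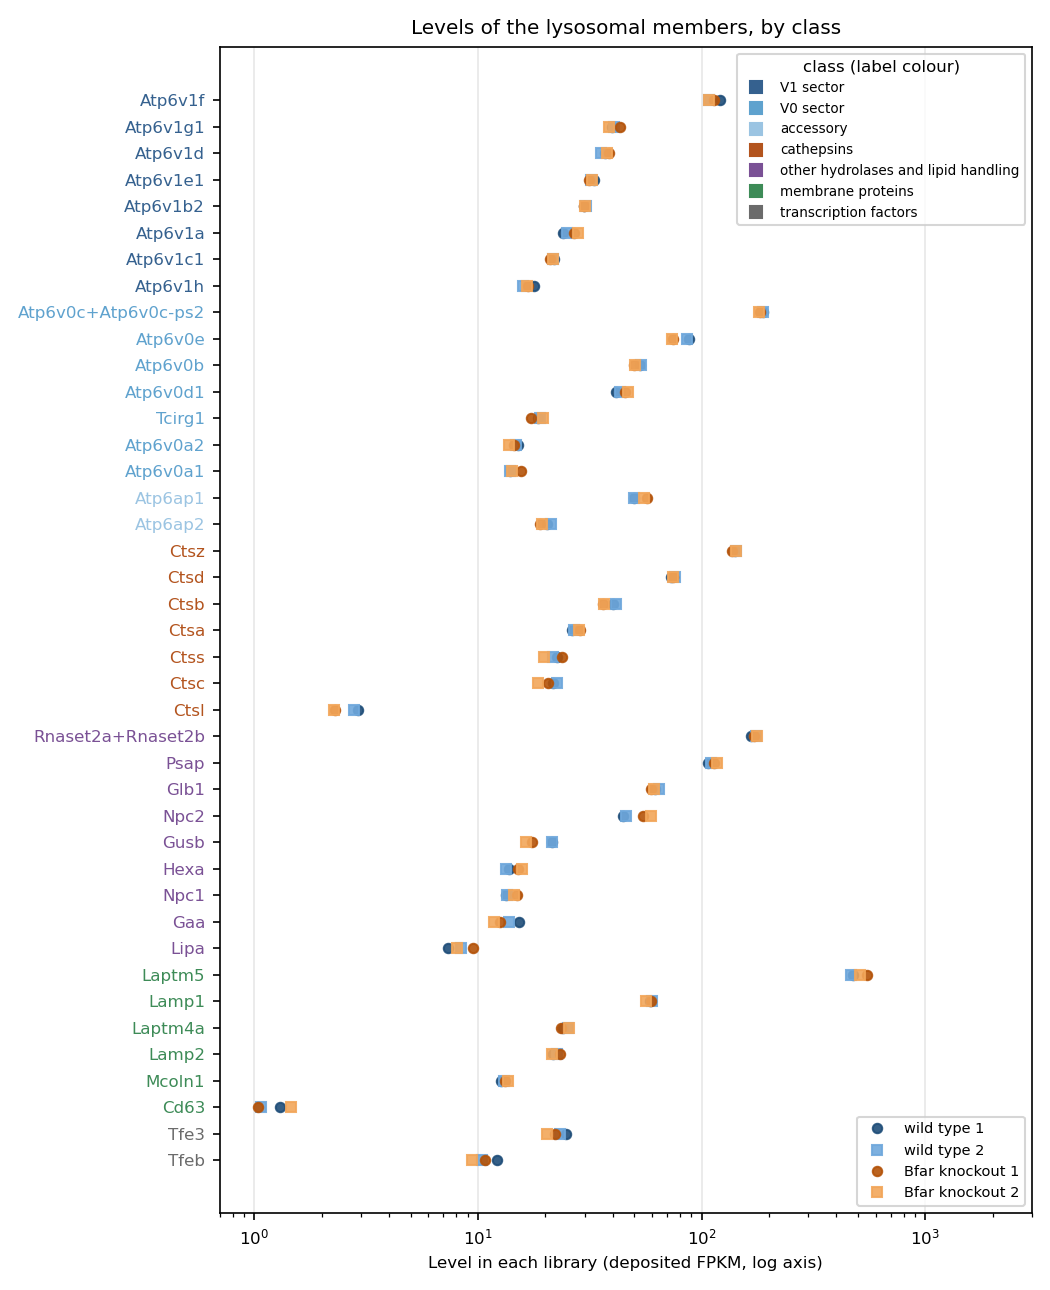
Deposited FPKM of each member in the 4 libraries on a log axis, ordered within class by mean level. Levels run from 1.04 (Cd63) to 547 (Laptm5), and for most members the 4 points lie on top of each other.

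In the cytosolic V1 sector of the pump, 1 of 8 subunits changed (12.5%), beside 26.8% of all genes tested. Atp6v1a (chr16:44085402-44139702 in RefSeq, GRCm38.p6, as are the gene positions that follow), the catalytic A subunit, had 94.8 and 99.2 CPM in wild type, then 107 and 111 in the knockout. Both knockout libraries lay above both wild-type libraries. The rise was 12.6% (log2 0.17 ± 0.04, SE, with 2 libraries a genotype; edgeR adjusted p = 0.0106) and did not pass in DESeq2 (adjusted p = 0.069). The call was lost without wild type replicate 1 (adjusted p = 0.126) and without knockout replicate 2 (0.129), and over all 14 alternative settings its adjusted p ran from 0.00255 to 0.129. Atp6v1b2, the B subunit that pairs with A in the catalytic ring, had 82.3 and 83.4 CPM in wild type and 82.1 and 82.8 in the knockout, with overlapping groups and a log2 fold change of -0.01 (95% interval -0.10 to 0.09). The stalk and regulatory subunits Atp6v1c1, Atp6v1d, Atp6v1e1, Atp6v1f, Atp6v1g1 and Atp6v1h had log2 fold changes from -0.04 (Atp6v1f) to 0.08 (Atp6v1d), and the intervals of the 7 subunits without a call lay between -0.16 and 0.19.

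In the membrane V0 sector, 1 of 7 values changed (14.3%), beside 26.8% of all genes tested. Atp6v0e (chr17:26676396-26699647), a small subunit of the membrane sector, had 68.1 and 66.9 CPM in wild type and 57.9 and 57.3 in the knockout. The groups were well apart, and the level fell by 14.6% (log2 -0.23 ± 0.05, SE; edgeR adjusted p = 0.00274). Its adjusted p was 0.0503 without knockout replicate 2 and at most 0.0362 under the other 13 settings. Atp6v0d1, which couples the central stalk to the proton ring, had 66.3 and 69.6 CPM in wild type and 73.3 and 75.9 in the knockout. Its groups did not overlap, and it stood next to the threshold (log2 0.13 ± 0.05, adjusted p = 0.0531), with adjusted p values from 0.0272 (replicate number as a block) to 0.325 (without wild type replicate 1) under other settings. Atp6v0b, a proteolipid of the ring, had a log2 fold change of -0.09 (adjusted p = 0.228).

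The a subunit, which holds the proton channels, exists as isoforms that direct the pump to different membranes. Per length, Tcirg1 (a3) made up 39.0% and 39.6% of the a-subunit FPKM in wild type and 36.4% and 41.0% in the knockout. Atp6v0a2 made up 31.8% and 31.2%, then 30.7% and 29.0%. Atp6v0a1 made up 29.3% and 29.2%, then 32.8% and 29.97%. The isoforms thus had like levels, and the groups overlapped for Tcirg1 alone. None of the log2 fold changes in counts passed the test (0.10 for Atp6v0a1, -0.08 for Atp6v0a2 and -0.03 for Tcirg1; adjusted p = 0.185, 0.256 and 0.792).

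Atp6v0c encodes the main proteolipid of the proton ring, and its value depended on a processed copy on another chromosome. The coding stretches of Atp6v0c and Atp6v0c-ps2 differ at 1 of 465 bases in GENCODE M21 (GRCm38), T111C counted from the start codon of Atp6v0c. The stretch of 61 bases around it is shown because only reads over such bases can tell the copies apart within the coding sequence; the capital marks the base that differs. It lies at chr17:24164821-24164881 on the minus strand for Atp6v0c and at chr6:37806166-37806226 on the plus strand for the copy.
Atp6v0c: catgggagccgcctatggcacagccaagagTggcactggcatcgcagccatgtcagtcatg
Atp6v0c-ps2: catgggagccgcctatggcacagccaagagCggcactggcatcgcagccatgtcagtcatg

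Of the pair's counts RSEM assigned 2.29% and 1.55% to the copy in wild type, but 68.0% and 73.1% in the knockout. Taken apart, Atp6v0c had 209 and 210.5 CPM in wild type and 65.9 and 54.6 in the knockout, while Atp6v0c-ps2 had 4.90 and 3.29, then 140 and 148. The sum stood at 213 and 214 CPM in wild type and 206 and 203 in the knockout (log2 -0.06 ± 0.04, SE; edgeR adjusted p = 0.23). Which copy the reads came from cannot be read from gene-level counts, and the cause of the shift was not tested.

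**Figure D3:**
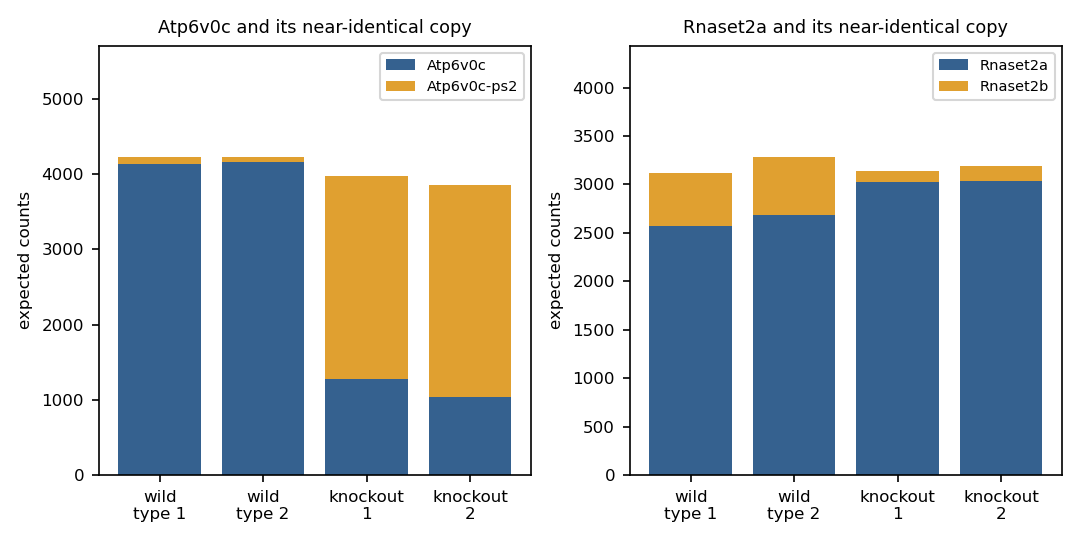
Expected counts assigned to each gene of the pairs Atp6v0c with Atp6v0c-ps2 and Rnaset2a with Rnaset2b, stacked per library. In the knockout 68.0% and 73.1% of the first pair's counts lie on the copy, against 2.29% and 1.55% in wild type, while the stacked heights are nearly equal.

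Of the accessory proteins, Atp6ap1 (Ac45), which guides assembly of the pump, had 108.6 and 108.6 CPM in wild type and 124 and 121 in the knockout, a rise of 12.9% (log2 0.17 ± 0.04, SE; edgeR adjusted p = 0.00584). It was 0.0679 without knockout replicate 1 and at most 0.0452 under the other 13 settings. Atp6ap2, the prorenin receptor, had 48.2 and 50.3 CPM, then 45.3 and 46.1 (log2 -0.11, adjusted p = 0.164). Over the 15 V1 and V0 values the median absolute log2 change was 0.06, and the 13 without a call had intervals between -0.20 and 0.24. Of the pump's tissue-restricted subunits and assembly factors outside the members, 11 of 18 were tested. None passed with all 4 libraries in edgeR without a block or in DESeq2. Of all genes tested, 26.8% passed in edgeR with TMM factors and 13.5% in DESeq2. Of these 11 genes, 2 were higher and 2 lower in edgeR at an unadjusted p under 0.05. The nearest to the threshold were Dmxl2 (log2 -0.28, adjusted p = 0.0605), Wdr7 (0.16, 0.0735) and Rogdi (-0.34, 0.104), of the complex that reassembles V1 with V0, and the G subunit Atp6v1g2 (0.40, 0.119). The value of Atp6v1g2 moved with the knockout library left out, to 0.08 without knockout replicate 1 and to 0.66 without knockout replicate 2 (adjusted p = 0.037). Exons of Wdr7 and Atp6v1g2 overlap a gene on the other strand.

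Among the 7 cathepsins 3 fell and none rose, beside 13.2% and 13.6% of all genes tested; none of the 3 passed without knockout replicate 2, and Ctsb alone passed in DESeq2. Ctsb, an abundant cysteine protease, had 193 and 198 CPM in wild type and 174 and 176 in the knockout. It fell by 10.6% (log2 -0.16 ± 0.04, SE; edgeR adjusted p = 0.00634), with adjusted p values of 0.0657 without wild type replicate 2, 0.0725 without knockout replicate 1 and 0.0575 without knockout replicate 2. Exons of Ctsb overlap those of Fdft1 on the other strand, and with no strand setting given their reads cannot be told apart. Fdft1, a sterol synthesis enzyme, fell as well (log2 -0.20 ± 0.04, adjusted p = 0.002).

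Ctsc, the dipeptidyl peptidase that activates granzymes, had 154 and 159 CPM in wild type and 147 and 131 in the knockout. The knockout libraries differed from each other by more than the nearest libraries of the 2 genotypes. Its log2 fold change was -0.17 ± 0.05 (SE; edgeR adjusted p = 0.0206), and without knockout replicate 2 it was -0.09 (adjusted p = 0.263); the adjusted p was 0.129 without wild type replicate 2. Ctsl, a cysteine protease at low level here, had 10.3 and 9.92 CPM, then 8.09 and 8.06 (log2 -0.32 ± 0.11, adjusted p = 0.0437). The Ctsl call was lost without any 1 library (adjusted p from 0.103 to 0.183) and in DESeq2 (0.313).

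The other cathepsins did not pass. Ctsd, the main aspartic protease of the lysosome, had 144 and 150 CPM in wild type and 147 and 148 in the knockout, with overlapping groups and an interval of the log2 fold change from -0.08 to 0.10. Ctsz, a carboxypeptidase and the cathepsin with the highest FPKM, had a log2 fold change of -0.02 (adjusted p = 0.764). Ctss, best known for antigen processing, had -0.02 (adjusted p = 0.902). Ctsa, which protects other lysosomal enzymes, had 0.09 (adjusted p = 0.129), and its exons overlap those of Neurl2 and Pltp on the other strand.

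Of 9 values for other hydrolases and lipid-handling proteins 2 rose and 2 fell, beside 13.6% and 13.2% of all genes tested. Npc2 (chr12:84754559-84773112), a small soluble protein that binds cholesterol in the lumen, rose most of all members, from 147 and 151 CPM in wild type to 180.3 and 196 in the knockout. Its log2 fold change was 0.34 ± 0.05 (SE; edgeR adjusted p = 7.52e-05), and it passed under all 14 alternative settings (adjusted p at most 0.0167). Npc1, the membrane protein that takes cholesterol over from NPC2, had 69.8 and 70.7 CPM, then 78.8 and 76.8. The rise of 10.7% (log2 0.15 ± 0.05, adjusted p = 0.0283) lost its call without any 1 library (adjusted p from 0.0857 to 0.155) and in DESeq2 (0.203). Lipa, the acid lipase that frees cholesterol from its esters, had 22.1 and 25.2 CPM, then 28.7 and 24.3 (log2 0.17, adjusted p = 0.199).

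Gusb (chr5:129989011-130003049), the beta-glucuronidase of glycosaminoglycan breakdown, fell most in relative terms. It had 52.6 and 52.4 CPM in wild type and 43.0 and 40.6 in the knockout, a wide gap beside the spread within genotypes (log2 -0.33 ± 0.06, SE; edgeR adjusted p = 0.000464). The call held under all 14 alternative settings (adjusted p at most 0.0306). Gaa, the acid alpha-glucosidase that degrades glycogen, had 53.8 and 48.7 CPM, then 44.4 and 42.2, and did not pass in DESeq2 (adjusted p = 0.0676). It fell by 0.24 ± 0.06 on the log2 scale (adjusted p = 0.00841), with adjusted p values of 0.134 without wild type replicate 1, 0.0608 without knockout replicate 1 and 0.14 without knockout replicate 2.

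Hexa, a hexosaminidase subunit, and Psap, the precursor of the saposins that activate sphingolipid hydrolases, lay next to the threshold. Hexa had 25.7 and 24.7 CPM, then 28.0 and 29.4 (log2 0.19, adjusted p = 0.0663). Psap had 279 and 289 CPM, then 298 and 309 (log2 0.10, adjusted p = 0.0801). In both genes the knockout libraries lay above the wild-type libraries. Glb1, the beta-galactosidase, had a log2 fold change of -0.04 (adjusted p = 0.473); 4.5% of its 31-base words also occur in Tmppe, which shares exons with it.

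Rnaset2a and Rnaset2b, copies of the lysosomal ribonuclease T2 gene, were identical over all 777 coding bases compared. Rnaset2b took 17.6% and 18.1% of the pair's counts in wild type and 3.49% and 4.70% in the knockout. Their sum was 158 and 166 CPM, then 163 and 168, with overlapping groups (log2 0.03 ± 0.04, SE; edgeR adjusted p = 0.657). Taken apart, Rnaset2a was at log2 0.25 and Rnaset2b at -2.10. Of the 31-base words of Rnaset2b 62.3% also occur in Rnaset2a, and reads of shared and own sequence were not separated here.

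Of the 6 membrane proteins 1 passed the test, beside 26.8% of all genes tested. This was Laptm5 (chr4:130912890-130936148). It had 1145 and 1114 CPM in wild type and 1319 and 1233 in the knockout, a rise of 13.0% (log2 0.18 ± 0.04, SE; edgeR adjusted p = 0.00291). The call was lost without knockout replicate 1 (0.0591). Lamp1 and Lamp2, the major glycoproteins of the limiting membrane, had overlapping groups. Lamp1 had 131 and 134 CPM, then 134 and 126 (95% interval of the log2 fold change -0.12 to 0.06). Lamp2 had 56.2 and 57.6 CPM, then 60.3 and 54.0 (-0.12 to 0.13). Mcoln1, the calcium channel of the lysosome, and Laptm4a, a transmembrane protein of late endosomes, had log2 fold changes of 0.06 and -0.01 (adjusted p = 0.586 and 0.961).

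**Figure D4:**
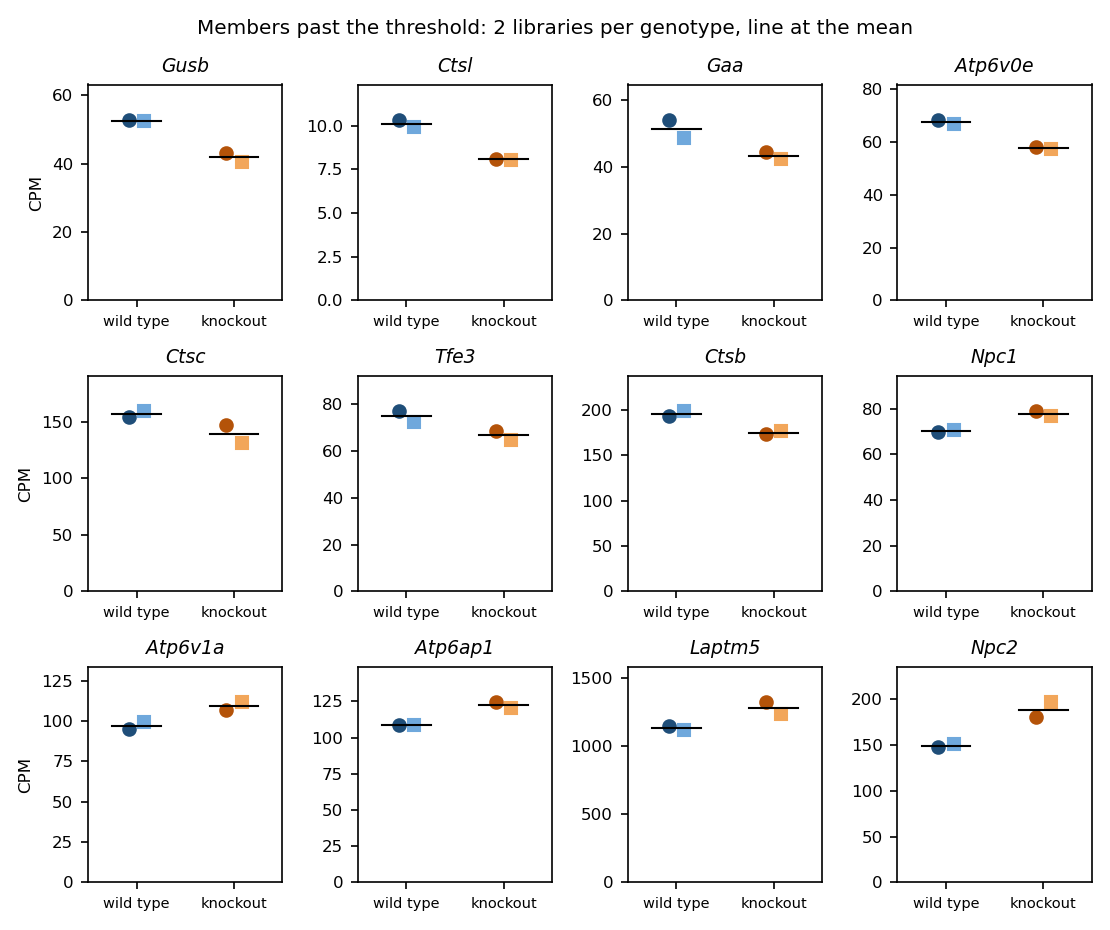
CPM in the 4 libraries (circle for replicate 1, square for replicate 2, line at the mean) for the 12 members past the threshold, ordered from the largest fall (Gusb) to the largest rise (Npc2); each axis starts at 0. The groups do not overlap in any panel, as for 63.4% of all tested genes. The panels were chosen by adjusted p in these same libraries, so their separation adds no support. The gap between the groups is small beside the level.

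Tfe3, a basic helix-loop-helix factor that induces lysosomal genes, had 76.9 and 72.6 CPM in wild type and 68.7 and 64.6 in the knockout. It fell by 0.16 ± 0.05 on the log2 scale (SE; edgeR adjusted p = 0.0268), with adjusted p values of 0.229 without wild type replicate 1, 0.0619 without knockout replicate 1 and 0.232 without knockout replicate 2. Tfe3 did not pass in DESeq2 (adjusted p = 0.17). Tfeb, its close relative, had 28.6 and 24.6 CPM, then 25.4 and 22.3, with overlapping groups (log2 -0.16, 95% interval -0.35 to 0.03, edgeR adjusted p = 0.22). These are RNA levels, and where the factors lay in the cell was not measured. Of their relatives, Mitf was expressed at a low level (log2 fold change -0.04, edgeR adjusted p = 0.942), and Tfec was not listed in any library.

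The letters CACGTG, which read the same on both strands, were sought in RefSeq promoter windows (GRCm38.p6, 250 bases before to 50 after the start site). A window was found for 35 of the 43 member genes. Of these 11 held the letters (31.4%), beside 11.8% of the 10122 tested genes with a window and 8.09% of all genes in the table. Counted by window, 24.4% of the members' windows held them, beside 10% of the 12803 windows of tested genes and 7.15% of all 32851 windows. The form with T before and A after occurred in 6 members (17.1%) and in 2.28% of tested genes. The motif occurred in 4 of the 10 called members with a window (Atp6v1a, which rose, and Atp6v0e, Ctsl and Gaa, which fell) and in 7 of the 25 without a call. The windows of Npc2 and Gusb had no match. No difference between called and other members was tested.

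Stretches of 150 bases before the start site are shown for members in which the motif is repeated within that stretch (Lamp1, Mcoln1 and Atp6v0b) and for called members that held it there (Atp6v1a and Gaa). Capitals mark CACGTG. The windows lie at chr8:13159011-13159160 (plus strand, Lamp1), chr8:3500369-3500518 (plus, Mcoln1), chr4:117887330-117887479 (minus, Atp6v0b), chr16:44139260-44139409 (minus, Atp6v1a) and chr11:119267813-119267962 (plus, Gaa).
Lamp1: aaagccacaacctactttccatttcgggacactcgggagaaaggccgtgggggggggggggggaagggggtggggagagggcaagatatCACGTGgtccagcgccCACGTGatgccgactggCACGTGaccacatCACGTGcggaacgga
Mcoln1: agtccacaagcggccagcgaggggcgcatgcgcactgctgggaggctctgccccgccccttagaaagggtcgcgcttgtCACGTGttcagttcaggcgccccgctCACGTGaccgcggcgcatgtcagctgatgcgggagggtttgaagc
Atp6v0b: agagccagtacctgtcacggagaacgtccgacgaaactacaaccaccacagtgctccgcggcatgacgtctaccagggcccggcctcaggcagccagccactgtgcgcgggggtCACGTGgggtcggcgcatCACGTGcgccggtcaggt
Atp6v1a: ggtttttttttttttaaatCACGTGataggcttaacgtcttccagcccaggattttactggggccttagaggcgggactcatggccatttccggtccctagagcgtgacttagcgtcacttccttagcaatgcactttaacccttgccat
Gaa: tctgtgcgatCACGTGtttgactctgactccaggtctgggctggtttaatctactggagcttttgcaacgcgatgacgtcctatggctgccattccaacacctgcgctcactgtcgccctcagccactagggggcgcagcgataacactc

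Lamp1 held the letters 4 times within 61 bases of its start and its groups overlapped. Mcoln1 and Atp6v0b held 2 matches each and did not pass the test. Atp6v1a held them once, 131 bases before its start, and Gaa once, 140 bases before, and these genes moved in opposite directions. A match is a description of the sequence and not a measured binding site.

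Of the members 15 had more than 1 transcript in the tables, so a change of isoform could alter FPKM without altering counts. The mean transcript length listed by RSEM differed between libraries for 14 members, by at most 3.20% (Lamp2, 2518 to 2600 bases).

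The wider lysosomal pathway was read from lists of other genes. Of 43 tested hydrolases, activators and processing factors outside the members, 7 rose and 7 fell (median log2 0.09), beside 13.6% and 13.2% of all genes tested. DESeq2 gave 4 and 3. Fewer of the list fell without any 1 library, and fewer rose without knockout replicate 1, as over all genes tested. More rose without wild type replicate 2. Galc, which degrades galactosylceramide, had 8.73 and 10.2 CPM in wild type and 20.2 and 21.4 in the knockout, a larger change than in any member (log2 1.13 ± 0.10, SE; edgeR adjusted p = 1.26e-06). Ifi30, the thiol reductase GILT of antigen processing, rose by 0.61 ± 0.06 and the acid phosphatase gene Acp5 by 0.40 ± 0.06. Scpep1, a serine carboxypeptidase whose exons overlap an antisense gene, fell by 0.46 ± 0.06. Among 30 tested membrane proteins and transporters 4 rose and 3 fell (median 0.07). Fewer rose without knockout replicate 1, as over all genes tested. Tmem9 rose by 0.52 and the peptide transporter gene Abcb9 by 0.58, while Hgsnat, of heparan sulfate breakdown, fell by 0.55 and Cln3 by 0.38 (adjusted p = 0.00215, and 0.0525 without knockout replicate 1). Exons of Cln3 overlap Apobr on the other strand.

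Of 28 tested TFEB regulators and nutrient-sensing genes at the lysosome 3 rose and 2 fell (median -0.04). Fewer fell without wild type replicate 2 or either knockout library, as over all genes tested. With no library left out, 17.9% of this list was called, beside 26.8% of all genes tested. Of the sestrin family of stress sensors, Sesn3 and Sesn2 went opposite ways, and Sesn1 did not pass (log2 0.09, edgeR adjusted p = 0.473). Sesn3 had 42.8 and 44.0 CPM in wild type and 75.9 and 81.5 in the knockout (log2 0.86 ± 0.05, SE; edgeR adjusted p = 2.98e-08), and Sesn2 had 131 and 124, then 109 and 99.5 (log2 -0.29 ± 0.05, adjusted p = 0.00056). Fnip1, a partner of the TFEB regulator folliculin, rose by 0.36 ± 0.05, while Flcn, which encodes folliculin, had 0.11 ± 0.07 (adjusted p = 0.275). Tsc1, a brake on mTORC1, had 0.19 (edgeR adjusted p = 0.0207) and did not pass in DESeq2 (adjusted p = 0.16). Its edgeR call was lost without wild type replicate 1 (log2 0.16) or knockout replicate 2 (log2 0.14).

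Of 40 autophagy genes 12 rose and none fell in edgeR with TMM factors and no block (2 were lower at an unadjusted p under 0.05, and none fell in DESeq2), beside 13.6% and 13.2% of all genes tested; the list's median log2 fold change was 0.04. The 12 rises lay between 0.13 and 0.66 on the log2 scale. DESeq2 called 3 of the 40 higher, beside 7.28% of all genes tested. With no filter on low counts 7 were higher, beside 6.02%, and with log2(FPKM + 0.1) 6, beside 9.07%. Wipi1, which binds the phosphoinositide on forming autophagosomes, had 6.46 and 6.28 CPM in wild type and 9.64 and 10.5 in the knockout (log2 0.66 ± 0.12, SE; edgeR adjusted p = 0.000876). Calcoco1, an autophagy receptor, rose by 0.36 ± 0.07, the cargo receptor gene Nbr1 by 0.20 ± 0.05 and the lipid scramblase gene Atg9a by 0.19 ± 0.05, whose exons overlap Ankzf1 on the other strand. Sqstm1, the receptor p62 that is itself degraded in lysosomes, rose by 0.13 ± 0.04 (edgeR adjusted p = 0.0205). Wipi1 and Calcoco1 also passed in DESeq2 (adjusted p = 0.0143 and 0.0152). Nbr1, Atg9a and Sqstm1 did not (DESeq2 adjusted p = 0.0557, 0.0665 and 0.093). Fewer of the list rose without any 1 library, and fewer of all genes tested did so as well. The count of rises ran from 3 to 13 over all alternatives, with 0 to 1 falls. The adjusted p of Calcoco1 and Nbr1 was 0.0533 and 0.0574 without knockout replicate 1. Atg9a lost its call when wild type replicate 2 (0.0621) or either knockout library (0.0515 and 0.0657) was left out, and the adjusted p of Sqstm1 lay from 0.0587 to 0.145 without any 1 library.

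Of 28 tested genes of sorting to the lysosome and fusion with it, 6 rose and 1 fell (median 0.01), beside 13.6% and 13.2% of all genes tested. Rises numbered 2 in DESeq2 and with no filter on low counts and 1 on either FPKM scale, and falls ran from 0 to 3 over all alternatives. The fusion SNARE gene Stx7 rose by 0.28 ± 0.06 (edgeR adjusted p = 0.00395, and 0.076 without knockout replicate 2). Igf2r, the large mannose 6-phosphate receptor that carries hydrolases to the lysosome, had 257 and 262 CPM in wild type and 284 and 286 in the knockout (log2 0.13 ± 0.04, SE; adjusted p = 0.0134), and 0.112 without wild type replicate 1, 0.071 without knockout replicate 1 and 0.0928 without knockout replicate 2. Vps8 and Vps39, of the tethering complexes CORVET and HOPS, rose by 0.20 ± 0.06 and 0.17 ± 0.05. Neither passed in DESeq2 (adjusted p = 0.139 and 0.106). Vps8 lost its call without wild type replicate 1 (0.15) or either knockout library (0.0928 and 0.0957), and Vps39 without either wild-type library (0.0525 and 0.114) or knockout replicate 2 (0.164). Fewer genes of this list rose without any 1 library, and fewer of all genes tested did so as well.

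**Figure D5:**
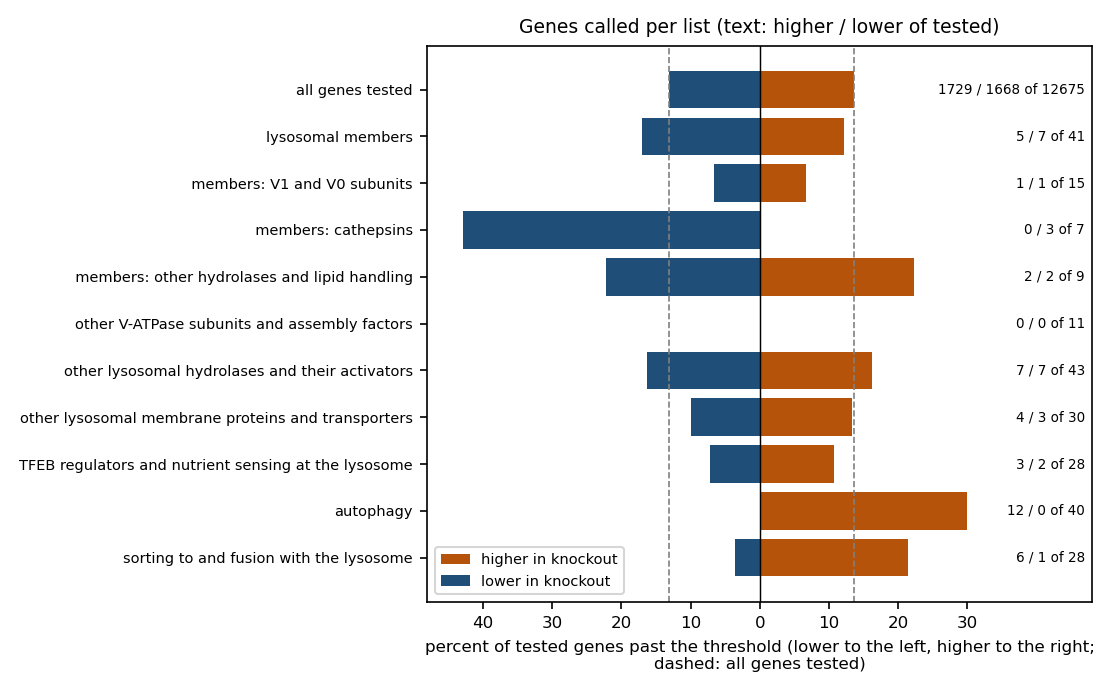
Share of tested genes past the threshold in each list, lower to the left and higher to the right, with counts as text and dashed lines at the shares of all genes tested. The 41 members (5 higher, 7 lower) sit near the dashed lines, the V1 and V0 subunits (1 and 1 of 15) inside them, and the autophagy list (12 higher, 0 lower of 40) beyond the line on the higher side alone. In DESeq2, not drawn here, 3 of these 40 were higher, beside 7.28% of all genes tested.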

How the data were processed

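RNA was sequenced on a HiSeq instrument, per the labels' protocols. The submitters' processing notes list Bowtie, RSEM and the build GRCm38 (mm10) with no versions; the sources used here give neither annotation release nor strand setting. The deposited tables hold, per the file headers, a transcript length, the RSEM expected count and FPKM of each gene; the authors' FPKM scales by length and depth. Genes missing from a table were taken as 0. Both copy pairs were summed, and expected counts were rounded and tested with edgeR 4.0.16 (R 4.3.3; quasi-likelihood, two-sided, TMM, filterByExpr with minimum count 10 and total 15, Benjamini-Hochberg over 12675 genes). CPM uses TMM-scaled library sizes. An SE is the absolute log2 fold change over the square root of F. Intervals are at 95%. The script was tested on simulated data. Alternatives used DESeq2 1.42.0 and limma 3.58.1. No libraries were duplicates (chi-square per degree of freedom 2.15 and 2.46 within genotypes, 13.1 to 16.2 across). Shared 31-base words and exon overlaps came from GENCODE M21. In related lists, the 4 genes with the smallest adjusted p were named, with Mitf, Tfec, Flcn and Sqstm1. Members and lists were chosen with earlier results of these data known.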

Additional observations from a re-analysis of the deposited data

How the results depend on the processing

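Of the 12 called members, Npc2 and Gusb passed under all 14 alternatives and 10 lost the call under at least 1; none changed sign. Of those without a call, Atp6v0d1 and Psap passed under at least 1. Over all genes (1729 higher and 1668 lower) and members (5 and 7), DESeq2 gave 923 and 786 genes and 3 and 3 members. No filter on low counts gave 1049 and 876, and 3 and 3. With log2(FPKM + 0.1), 1150 genes were higher, and 2 and 3 members passed; with log2(FPKM + 1), 3 and 3 members did. Leaving out 1 library gave 788 to 1246 genes higher and 612 to 1113 lower, and 2 to 4 members higher and 1 to 4 lower. The share of members and of all genes called was 14.6% and 13.5% in DESeq2, 12.2% and 18.6% with log2(FPKM + 0.1), 14.6% and 19.0% with log2(FPKM + 1), and 37.2% and 26.8% with copies kept apart. In that last setting Atp6v0c, Atp6v0c-ps2, Rnaset2a and Rnaset2b were each called, while neither sum was. Which copy their reads came from cannot be read here. Upper-quartile factors, library totals, limma-voom, a mean of at least 1 CPM and copies kept apart left these counts within 1.5-fold. With the replicate number as a block, 1974 genes were higher and 1972 lower, and 7 and 7 members. Replicates of the same number did not deviate together (correlation 0.00672). This rests on a single difference in each genotype, so it cannot show whether the numbers pair the samples. The knockout label check (Bfar) held throughout. With 2 libraries a group and standard errors of 0.04 to 0.33 on the log2 scale, changes of a few percent could not be resolved, least of all in Cd63. The cause of these differences between settings was not tested.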
